A study of Homo sapiens with 91 samples.

Results

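Expression of 10 genes of the MYC and MAX network was examined in 91 RNA-seq libraries from 3 human cancer cell lines treated with either of 2 compounds aimed at the kinase CDK9. The genes are MYC, MYCN, MAX, MLX, MLXIP, MGA, MNT, MXD1, MXD3 and MXI1. They were taken from the count tables by gene identifier, and all 10 of them were found among 62710 genes, each as 1 entry. MOLT4 (acute lymphoblastic leukemia, 35 libraries) and PSN1 (pancreatic adenocarcinoma, 32 libraries) were collected at 2, 4 and 8 h, and RH4 (rhabdomyosarcoma, 24 libraries) at 4 and 8 h. Cells received KI-CDK9d-32, a CDK9 degrader, KB-0742, a CDK9 inhibitor, or DMSO vehicle, and PSN1 has no KB-0742 group at 2 h. Each group had 4 libraries except MOLT4 vehicle at 4 h, which had 3. All cells came from the 3 established lines grown in the same medium with serum, so every group of a line shares that line's genotype. The labels give no dose for either compound, so the compounds are compared only at matched times.

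MYC and MYCN are basic helix-loop-helix leucine zipper transcription factors. They bind DNA at E-box sequences as dimers with MAX and activate genes for ribosome production, metabolism and cell growth. MXD1, MXD3, MXI1, MNT and MGA also dimerize with MAX and repress from such sites, MXD and MNT proteins through SIN3 corepressors and MGA through a variant Polycomb complex. MLX is a MAX-like partner of MLXIP (MondoA), which responds to glucose metabolites. CDK9 phosphorylates RNA polymerase II and its pausing factors so that elongation can start. MYC mRNA is short-lived, so its level follows ongoing transcription closely, and the MYC network is named in the study's title.

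Library gene counts ranged from 1598283 to 3240753 in MOLT4, from 1998712 to 3227113 in PSN1 and from 1670111 to 3136769 in RH4. Defining markers were checked in each line, with 9 of 12 T-lineage markers above a mean of 1 TPM (transcripts per 1000000, over genes) in MOLT4 and 0 of 12 in the other lines, 10 of 11 pancreatic carcinoma markers in PSN1, and 10 of 12 rhabdomyosarcoma markers in RH4 and 0 of 12 elsewhere. Of the pancreatic markers, 5 also passed that level in RH4 and 2 in MOLT4. A few libraries stood apart. Spike-in RNA, added in equal amount to each lysate, took 61.5%, 49.4% and 39.5% of counts in MOLT4 KI-CDK9d-32 8 h replicate 3, KB-0742 4 h replicate 3 and KI-CDK9d-32 4 h replicate 3, the 3 highest shares of all libraries. Summed pancreatic markers reached 71.5 TPM in MOLT4 vehicle 8 h replicate 1 against a median of 16.5 in MOLT4. Summed rhabdomyosarcoma markers reached 25.7 and 18.8 TPM in replicate 4 of PSN1 vehicle and of PSN1 KI-CDK9d-32 at 2 h, against medians of 1.10 in PSN1 and 1050 in RH4. Results that lose their call without these 6 libraries are named where they occur.

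Of the 10 genes, 9 had a promoter sequence in the RefSeq table (GRCh38.p14, 250 bases before to 50 bases after each start, 14 promoters in all). The E-box letters CACGTG, which read the same on both strands, occurred in 2 of these 14 promoters, those of MNT and MLX, and in 7.26% of all 35116 promoters of that length. The stretches around them are shown because this sequence is the common binding motif of the dimers these genes encode. Capitals mark the E-box. They lie at chr17:2401203-2401298 (minus strand) for MNT and at chr17:42567005-42567099 (plus strand) for MLX.
MNT: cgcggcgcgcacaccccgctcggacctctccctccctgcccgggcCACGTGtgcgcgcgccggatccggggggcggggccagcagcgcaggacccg
MLX: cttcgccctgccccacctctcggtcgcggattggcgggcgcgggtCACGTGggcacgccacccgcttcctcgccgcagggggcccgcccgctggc
A match is a description of the letters only, and no binding was measured in these samples.

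On GRCh38 (GENCODE 29), MYC (ENSG00000136997) spans chromosome 8 from 127735434 to 127741434, MAX (ENSG00000125952) chromosome 14 from 65006174 to 65102695, MLX (ENSG00000108788) chromosome 17 from 42567068 to 42573239, MLXIP (ENSG00000175727) chromosome 12 from 122078722 to 122147347 and MGA (ENSG00000174197) chromosome 15 from 41621224 to 41773081. MNT (ENSG00000070444) spans chromosome 17 from 2384060 to 2401118, MXD1 (ENSG00000059728) chromosome 2 from 69897688 to 69942945, MXD3 (ENSG00000213347) chromosome 5 from 177301461 to 177312757, MXI1 (ENSG00000119950) chromosome 10 from 110207605 to 110287365 and MYCN (ENSG00000134323) chromosome 2 from 15940564 to 15947007. Each value is 1 estimate for the whole gene.

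The first comparison set the vehicle levels of the lines side by side. MYC was the highest of the 10 genes per length in MOLT4 (93.7 ± 11.0 TPM, mean ± SD, n = 11) and in PSN1 (110.0 ± 18.7 TPM, n = 12) but ranked 4 of 10 in RH4 (15.7 ± 5.0 TPM, n = 8), below MXD3, MLX and MAX. MAX, the shared partner, stood at 68.1 ± 3.75 TPM in MOLT4, 31.9 ± 4.05 in PSN1 and 31.0 ± 6.64 in RH4. MXD3, a repressor of the MXD family, was nearly level with MAX in MOLT4 (66.2 ± 10.2 TPM), headed the order in RH4 (40.3 ± 10.3 TPM), and was lowest in PSN1 (10.8 ± 2.87 TPM). MLX followed at 49.3 ± 3.71, 27.5 ± 4.01 and 36.5 ± 3.12 TPM in MOLT4, PSN1 and RH4. MLXIP stood between 5.0 ± 1.21 TPM in PSN1 and 9.4 ± 2.23 in RH4. MGA, MNT, MXD1 and MXI1 had mean levels of 0.689 to 3.69 TPM in all lines. The library ranges of MAX (63.6 to 74.6 TPM) and MXD3 (40.0 to 75.2 TPM) overlapped in MOLT4, as did those of MXD3, MLX and MAX in RH4, so these neighbours were not separated beyond their spread, whereas all MYC values lay above all MAX values in MOLT4 and in PSN1.

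Counts per gene were then tested between lines over the mean of the 4 h and 8 h vehicle groups, with the quasi-likelihood test of edgeR and p-values adjusted over all genes by the Benjamini-Hochberg method. The labels mention biological replicates without saying whether each was a separate culture. The p-values then reflect only how these samples vary, and part of that variation may be technical. PSN1 and MOLT4 both had more MYC than RH4, by 3.24 ± 0.13 and 2.61 ± 0.13 on the log2 scale (log2 fold change ± standard error, adjusted p = 2.63e-39 and 1.82e-32), and MOLT4 had less than PSN1 (-0.64 ± 0.12, adjusted p = 2.08e-06). MXD3 was higher in MOLT4 than in PSN1 by 1.97 ± 0.18 (adjusted p = 2.12e-17), while MXD1 was lower (-1.25 ± 0.31, adjusted p = 0.00023). In all, 6 of 10 genes differed between MOLT4 and PSN1, against 61.4% of all genes tested, 8 between MOLT4 and RH4 against 59.5%, and 7 between PSN1 and RH4 against 59.6%. When libraries were scaled by their spike-in counts in place of TMM, the differences of MGA, MLX and MXD3 between MOLT4 and RH4 and of MAX between PSN1 and RH4 changed sign. Without replicate number 2, 3 or 4 MGA was not called between MOLT4 and PSN1 (adjusted p from 0.0636 to 0.228). MXI1 was not called without number 1 between MOLT4 and RH4 (0.054) or between PSN1 and RH4 (0.21), nor MXD1 between PSN1 and RH4 without number 3 (0.0664).

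**Figure D1:**
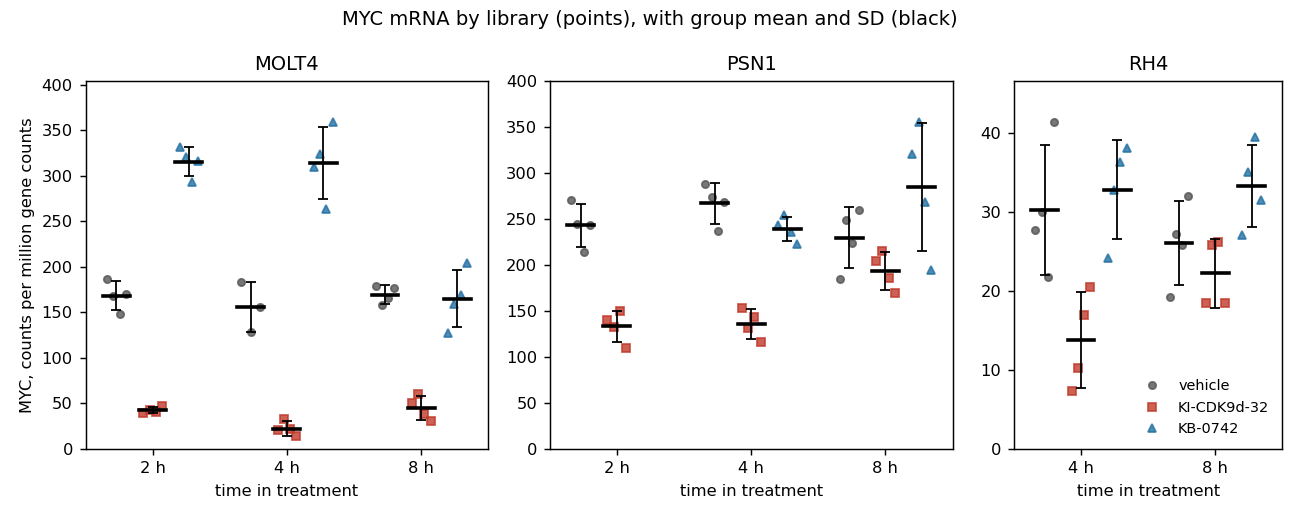
MYC mRNA in CPM (vertical axis, from 0, with its own range in each panel) by time in MOLT4, PSN1 and RH4. Points are libraries (grey circles vehicle, red squares KI-CDK9d-32, blue triangles KB-0742), and black bars give the mean and SD of each group. KI-CDK9d-32 libraries lie below vehicle at every time in MOLT4 (14.0 to 59.8 against 128 to 187), whereas in PSN1 and RH4 the groups overlap at 8 h.

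The main comparison asked what each compound did to MYC. KI-CDK9d-32 lowered MYC mRNA relative to other transcripts in 6 of 8 comparisons with vehicle, in MOLT4 at 2, 4 and 8 h, in PSN1 at 2 and 4 h and in RH4 at 4 h. The greatest fold change was in MOLT4 at 4 h. KB-0742 raised it in MOLT4 at 2 and 4 h and gave no call in its other 5 comparisons, so the compounds moved MYC in opposite directions at the same times in that line under TMM scaling. Under spike-in scaling the rise with KB-0742 was not called at 2 h and turned to a value below 0 at 4 h. The degrader effect on MYC was also called in 6 of 8 comparisons on that scale, but PSN1 at 2 h and RH4 at 4 h were not among them and both lines at 8 h were. In bulk samples, fewer cells of a type and less RNA per cell cannot be told apart.

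In MOLT4 vehicle libraries MYC stood at 187, 167, 148 and 170.5 CPM (counts per 1000000 gene counts) at 2 h, at 183, 128 and 156 at 4 h and at 179, 157, 165 and 176 at 8 h. With KI-CDK9d-32 the values were 39.6, 42.2, 40.7 and 47.1 at 2 h, 20.7, 32.7, 21.5 and 14.0 at 4 h and 50.5, 59.8, 38.7 and 30.4 at 8 h. Every degrader library lay below every vehicle library of its time. The log2 fold change against vehicle was -1.99 ± 0.15 at 2 h (adjusted p = 2.2e-13), -2.77 ± 0.17 at 4 h (adjusted p = 5.37e-17) and -1.91 ± 0.16 at 8 h (adjusted p = 3.94e-14), which is 3.97-, 6.81- and 3.76-fold lower. Leaving out any single library kept all 3 calls. Of all genes tested, 9.98%, 32.6% and 49.6% were called at the same times, with 5.41%, 18.9% and 28.7% called lower, and 1, 5 and 6 of the 9 network genes tested were lower and 0 higher. In the 8 h groups the summed T-lineage markers stood at 148 to 182 TPM with the degrader and 149 to 221 with KB-0742, against 326 to 399 in vehicle, and the spike-in share at 39.9 ± 14.8% with the degrader against 14.5 ± 1.91% in vehicle (SD, n = 4). Of 10 T-lineage markers tested against vehicle, 4 were higher and 4 lower with the degrader and 0 higher and 3 lower with KB-0742. At 4 h those sums were 277 to 305 TPM with the degrader and 269 to 297 with KB-0742, against 360 to 382 in vehicle. Summed rhabdomyosarcoma markers stood at 2.12 to 4.14 TPM in MOLT4 with the degrader at 8 h, against 0 to 0.428 in vehicle, and 1 of 12 passed the filter there (CHRNA1, higher). The part of these markers and of the spike-in share in the MYC result was not tested.

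With KB-0742, MYC in MOLT4 reached 332, 321, 293 and 316 CPM at 2 h and 309, 324, 264 and 359 at 4 h, and stood at 127, 159, 169 and 204 at 8 h. The first 2 groups lie above all vehicle libraries, and at 8 h the groups overlap. The rise was 0.91 ± 0.14 on the log2 scale at 2 h (adjusted p = 9.93e-07) and 1.02 ± 0.15 at 4 h (adjusted p = 4.6e-07). At 8 h the value was -0.038 ± 0.14 (adjusted p = 0.846, interval -0.31 to 0.24). The background was 26.1%, 35.8% and 49.2% of all genes called, and 3 network genes were lower and 1 higher at 2 h, 3 and 2 at 4 h, and 1 and 1 at 8 h. Set directly against KB-0742, KI-CDK9d-32 left MYC 7.43-fold lower at 2 h (-2.89 ± 0.15, adjusted p = 1.28e-19), 13.8-fold at 4 h (-3.78 ± 0.17, adjusted p = 5.08e-23) and 3.66-fold at 8 h (-1.87 ± 0.16, adjusted p = 1.05e-13). In those comparisons 18.3%, 35.7% and 58.5% of all genes were called, against 4, 4 and 6 of 9 network genes.

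In PSN1, vehicle libraries had MYC at 270.2, 244, 214 and 244 CPM at 2 h, 288, 274, 237 and 268 at 4 h and 185, 249, 224 and 259.9 at 8 h. KI-CDK9d-32 libraries had 140.4, 133, 149.9 and 109 at 2 h, 153, 132, 143 and 116 at 4 h and 204, 215, 185 and 169 at 8 h. All degrader libraries lay under all vehicle libraries at 2 and 4 h, and at 8 h the groups overlapped. MYC fell at both times, with log2 fold changes of -0.87 ± 0.14 at 2 h (adjusted p = 0.000246) and -0.97 ± 0.14 at 4 h (adjusted p = 3.96e-06), when 0.481% and 7.36% of all genes were called. Under spike-in scaling the 2 h value was -1.13 and did not pass (adjusted p = 0.145), and the 4 h call held (-1.58, adjusted p = 0.000917). At 2 h MYC was the only network gene of 9 to pass, and at 4 h MLXIP passed with it. At 8 h its value was -0.25 ± 0.14 (adjusted p = 0.202), or -1.21 under spike-in scaling, which passed (adjusted p = 0.00195), with 20.7% of all genes called and 3 of 9 network genes called, MAX and MGA lower and MXD1 higher.

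KB-0742 left MYC in PSN1 at 244, 254, 236 and 222 CPM at 4 h and 321, 356, 268 and 195 at 8 h, which overlap vehicle at both times. The values were -0.16 ± 0.13 (adjusted p = 0.423, interval -0.42 to 0.10) and 0.31 ± 0.13 (adjusted p = 0.0722, interval 0.05 to 0.58). When replicate number was added to the model as a block, MYC was called at 8 h. On the spike-in scale MYC was called lower at 4 h (adjusted p = 0.01), and its 8 h value was -0.53 (adjusted p = 0.148). At 4 h edgeR called 0 of the 9 network genes with KB-0742 while 23.9% of all genes were called, 3 had an unadjusted p under 0.05, and DESeq2 called 1. At 8 h 2 were called, both higher (MLXIP and MNT), against 30.2%. Directly against KB-0742, the degrader left MYC lower, at -0.82 ± 0.14 at 4 h (adjusted p = 2.24e-05) and -0.56 ± 0.14 at 8 h (adjusted p = 0.00178), the latter with 1 KB-0742 library, at 195 CPM, inside the degrader range. Neither passed under spike-in scaling (-0.58 and -0.68, adjusted p = 0.276 and 0.163). The shares of all genes called were 17.4% and 24.8%, and 3 network genes were called at each time.

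RH4 had the least MYC, at 27.7, 30.0, 21.8 and 41.4 CPM in vehicle at 4 h and 19.2, 27.2, 25.8 and 32.0 at 8 h. With KI-CDK9d-32 the libraries stood at 7.31, 10.3, 16.9 and 20.5 at 4 h, all below vehicle, and at 18.4, 25.8, 26.2 and 18.5 at 8 h, within the vehicle range or just under it. With KB-0742 they stood at 24.1, 32.8, 36.3 and 38.1 at 4 h and 27.1, 35.1, 39.5 and 31.5 at 8 h, overlapping vehicle at both times. The fall with the degrader at 4 h was -1.11 ± 0.24 (adjusted p = 0.00454), or -1.37 under spike-in scaling, which did not pass (adjusted p = 0.0621). At 8 h the value was -0.22 ± 0.24 (adjusted p = 0.587, interval -0.69 to 0.24), or -1.11 under spike-in scaling, which passed (adjusted p = 0.0146). KB-0742 gave 0.13 ± 0.24 at 4 h and 0.35 ± 0.24 at 8 h (adjusted p = 0.703 and 0.234), which became -0.87 and -1.24 under spike-in scaling and passed (adjusted p = 0.0416 and 0.00342). Against KB-0742 the degrader gave -1.25 ± 0.25 at 4 h (adjusted p = 0.00018) and -0.58 ± 0.25 at 8 h (adjusted p = 0.0609). Neither passed under spike-in scaling (-0.50 and 0.12, adjusted p = 0.297 and 0.816), and the second changed sign. Background shares were 5.36% and 15.2% of all genes with KI-CDK9d-32, where 1 of 10 network genes was called at each time, 31.6% and 45.4% with KB-0742, where 2 were called at each time, and 25.8% and 38.4% between the compounds, where 3 were called at each time.

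The difference between lines was tested itself in a joint fit. The MYC response to KI-CDK9d-32 was deeper in MOLT4 than in PSN1, with a difference of -1.68 ± 0.26 at 4 h (adjusted p = 1.68e-06) and -1.59 ± 0.24 at 8 h (adjusted p = 2.46e-07). Against RH4 the difference was -1.58 ± 0.29 at 4 h (adjusted p = 9.15e-05) and -1.63 ± 0.27 at 8 h (adjusted p = 2.26e-06). MYC was the only network gene of 10 called in either 4 h difference, where 6.42% and 5.05% of all genes were called, and at 8 h MAX and MLX passed with it, against 17.6% and 16.7%. Between PSN1 and RH4 edgeR called 0 of 10 at 4 h and at 8 h (background 0.0756% and 0.573%), 2 had an unadjusted p under 0.05 at each time, and DESeq2 called 0. For KB-0742 the MYC response was higher in MOLT4 than in PSN1 at 4 h (1.11 ± 0.24, adjusted p = 0.000967, background 5.44%), where spike-in scaling gave 0.72 (adjusted p = 0.733). For KB-0742 edgeR called 0 of 10 genes between MOLT4 and RH4 at 4 h (background 2.49%), between PSN1 and RH4 at 4 h (1.38%), between MOLT4 and PSN1 at 8 h (12.3%) and between MOLT4 and RH4 at 8 h (9.36%), with 3, 1, 2 and 1 at an unadjusted p under 0.05 and 1, 0, 0 and 0 called by DESeq2. These tests share each line's vehicle libraries, which for MOLT4 at 8 h include the library with raised pancreatic markers, replicate 1. Every edgeR call named here held when all libraries numbered 1 were left out of the joint fit. That library was not left out alone.

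**Figure D2:**
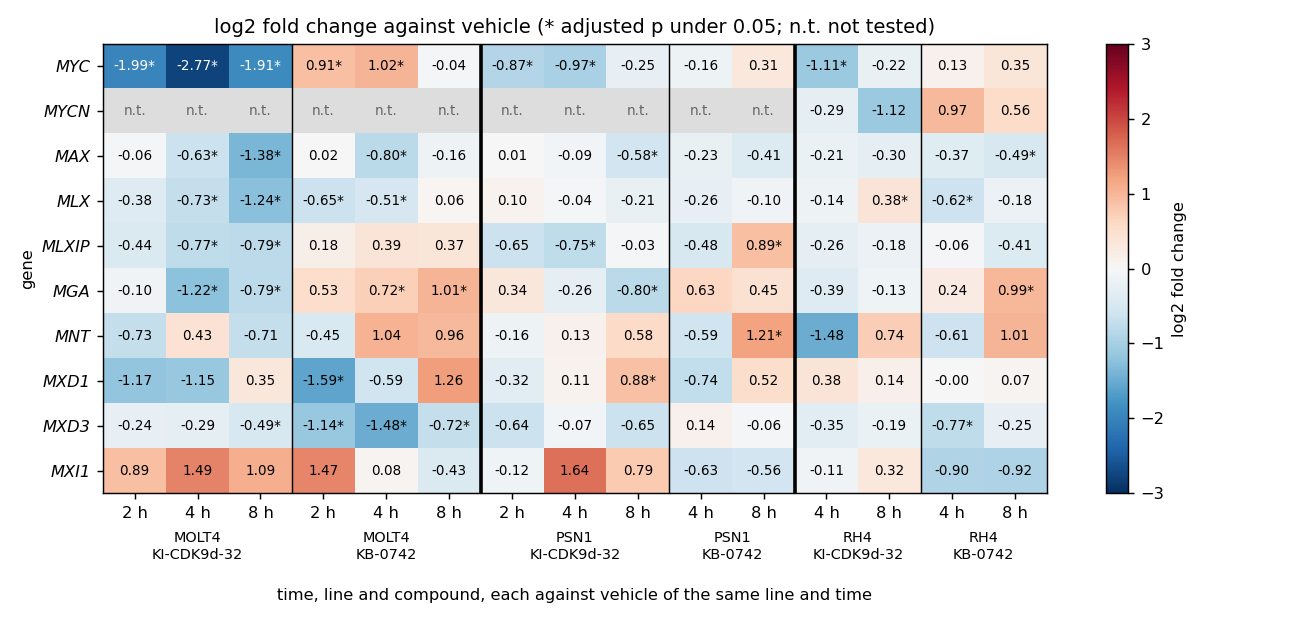
log2 fold change of each network gene (rows) against vehicle of the same line and time (columns, grouped by line and compound), with blue for lower, red for higher and grey for not tested. Stars mark an adjusted p under 0.05. MYC is lower with KI-CDK9d-32 in 6 of 8 columns, and MAX, MLX, MLXIP and MGA join it in MOLT4 at 4 and 8 h.

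MAX and MLX, the dimer hubs, had most of their calls under TMM scaling in MOLT4, where both were first called lower with the degrader at 4 h. Under spike-in scaling, KB-0742 against vehicle gave MAX as lower in 6 of 7 comparisons over the lines and MLX in 7 of 7. With the degrader on that scale they were called lower in 4 and 3 of 8. MAX stood at 110.4, 112, 117 and 129 CPM in MOLT4 vehicle at 8 h and at 58.3, 51.3, 36.9 and 32.2 with KI-CDK9d-32, with no overlap. At 2 h the degrader libraries held 107, 106, 105 and 113 CPM against 111, 106, 108 and 123 in vehicle, where groups overlap. The log2 fold change was -0.059 ± 0.12 at 2 h (adjusted p = 0.841), -0.63 ± 0.13 at 4 h (adjusted p = 0.000146) and -1.38 ± 0.14 at 8 h (adjusted p = 2.53e-12), and the further fall from 4 to 8 h was itself called (-0.75 ± 0.19, adjusted p = 0.00457). KB-0742 lowered MAX in MOLT4 at 4 h (67.6, 66.4, 75.2 and 62.3 CPM against 118, 119 and 117, -0.80 ± 0.14, adjusted p = 3.96e-06), with an 8 h value of -0.16 ± 0.12 (adjusted p = 0.297), and the change between those times was called (0.65 ± 0.18, adjusted p = 0.00884). At 8 h MAX was lower with the degrader than with the inhibitor (-1.23 ± 0.14, adjusted p = 1.25e-10).

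Outside MOLT4, MAX fell in PSN1 with KI-CDK9d-32 at 8 h (29.5, 33.8, 57.6 and 43.9 CPM against 57.1, 63.6, 59.2 and 65.5, -0.58 ± 0.17, adjusted p = 0.0101), where replicate 3 lay inside the vehicle range. Without KI-CDK9d-32 8 h replicate 2 the adjusted p was 0.0508. In RH4 it fell with KB-0742 at 8 h (37.6, 28.7, 32.4 and 37.3 CPM against 39.6, 38.9, 60.8 and 51.4, -0.49 ± 0.18, adjusted p = 0.024), a call lost without KB-0742 replicate 2 or 3 or vehicle replicate 3 or 4 of that time (adjusted p from 0.0555 to 0.128). The MAX response to the degrader was deeper in MOLT4 than in RH4 at 8 h (-1.02 ± 0.22, adjusted p = 0.000215) and than in PSN1 (-0.73 ± 0.22, adjusted p = 0.0113), though the latter was not called without replicate number 3 (adjusted p = 0.277) or 4 (0.199). MAX overlaps FNTB, and MLX overlaps PSMC3IP, each on the opposite strand, and without strand information reads from either gene in the overlap cannot be told apart.

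MLX followed a similar course in MOLT4 with the degrader, from 105, 103 and 96.3 CPM in vehicle to 53.3, 67.8, 60.5 and 64.0 at 4 h, and from 103, 89.1, 114 and 109 to 38.0, 45.2, 45.2 and 46.8 at 8 h. Neither pair of groups overlaps. The falls were -0.73 ± 0.16 (adjusted p = 0.000242) and -1.24 ± 0.16 (adjusted p = 4e-09). KB-0742 lowered MLX in MOLT4 at 2 h (-0.65 ± 0.14, adjusted p = 0.000403) and 4 h (-0.51 ± 0.16, adjusted p = 0.00914), and at 8 h its libraries spread from 74.4 to 137 CPM around the vehicle range (0.058 ± 0.14, adjusted p = 0.758). In RH4 the compounds differed. KB-0742 lowered MLX at 4 h (57.1, 45.2, 56.0 and 60.9 CPM against 87.7, 76.8, 87.7 and 85.3, -0.62 ± 0.14, adjusted p = 0.000543), and the degrader left it higher than KB-0742 at 4 h (0.48 ± 0.14, adjusted p = 0.00883) and 8 h (0.57 ± 0.14, adjusted p = 0.00126). The 4 h call was lost without KI-CDK9d-32 4 h replicate 1 (adjusted p = 0.0658). Against vehicle at 8 h the degrader gave 0.38 ± 0.13 in RH4 (adjusted p = 0.0417), a rise not called without any one of the degrader libraries or vehicle replicate 2, 3 or 4 of that time (adjusted p from 0.0557 to 0.135) and that became -0.50 under spike-in scaling. The 8 h response to the degrader was lower in MOLT4 than in RH4, with a difference of -1.57 ± 0.21 (adjusted p = 1.07e-08) and than in PSN1, with -0.96 ± 0.22 (adjusted p = 0.000488).

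**Figure D3:**
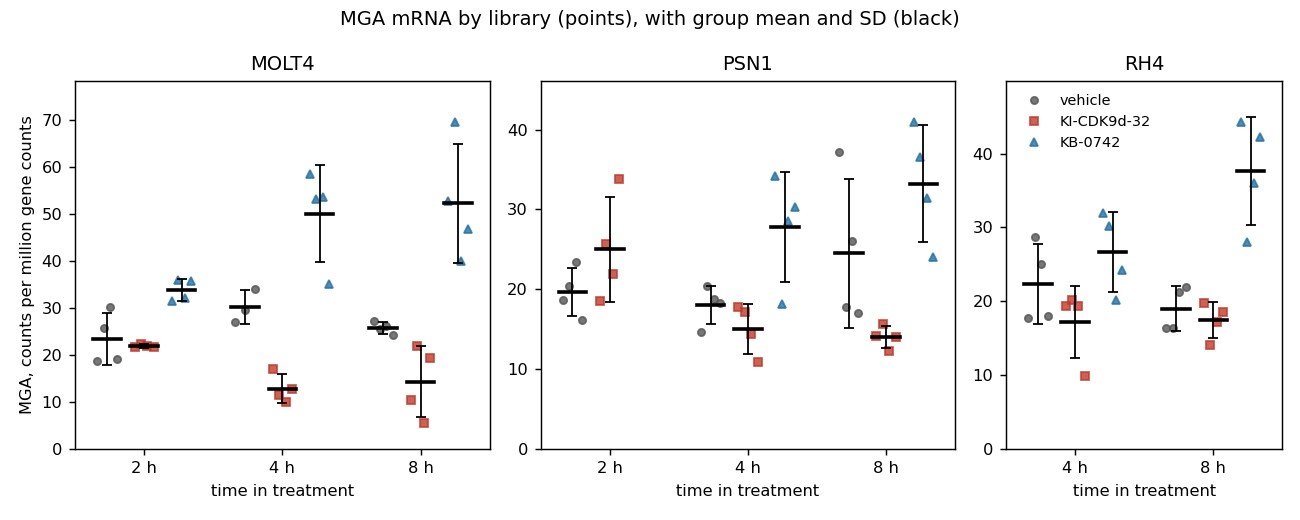
MGA mRNA in CPM (vertical axis, from 0, with its own range in each panel) by time in the 3 lines, drawn as in the plot of MYC. In every line KB-0742 libraries have the highest mean and KI-CDK9d-32 libraries the lowest at 4 and 8 h.

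MGA separated the compounds in all lines under TMM scaling. This MAX partner represses germline and other genes within a Polycomb complex. It was lower with KI-CDK9d-32 than with KB-0742 in 7 of 7 comparisons, the only network gene for which every such comparison was called. In MOLT4 at 4 h the degrader libraries held 17.0, 11.4, 10.0 and 12.8 CPM, vehicle 26.9, 29.6 and 34.0 and KB-0742 58.5, 53.3, 53.6 and 35.0. In the 8 h libraries MGA stood at 10.5, 22.0, 5.53 and 19.3 with the degrader, 27.2, 25.6, 26.1 and 24.3 in vehicle and 52.9, 69.7, 40.0 and 46.7 with KB-0742. Degrader, vehicle and inhibitor libraries thus formed 3 ranges without overlap at both times. The difference between compounds was -1.94 ± 0.24 at 4 h (adjusted p = 3.13e-09) and -1.80 ± 0.24 at 8 h (adjusted p = 9.55e-09). At 2 h it was -0.63 ± 0.21 (adjusted p = 0.0314), and it was not called without KB-0742 2 h replicate 2 or 4, KB-0742 8 h replicate 4 or any one of the degrader libraries of that time (adjusted p from 0.0536 to 0.0751).

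Against vehicle, both arms of that difference were called in MOLT4. KI-CDK9d-32 lowered MGA, with log2 fold changes of -1.22 ± 0.25 at 4 h (adjusted p = 8.99e-05) and -0.79 ± 0.25 at 8 h (adjusted p = 0.0063), and the 8 h value was -0.54 (adjusted p = 0.0603) without replicate 3, the library with the highest spike-in share. Without all libraries that stand apart its adjusted p was 0.0846. KB-0742 raised MGA by 0.72 ± 0.23 at 4 h (adjusted p = 0.0102, or 0.0568 without vehicle 4 h replicate 1) and 1.01 ± 0.21 at 8 h (adjusted p = 6.9e-05), values that became -0.64 and -0.31 under spike-in scaling.

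In PSN1, MGA stood at 17.7, 17.1, 14.4 and 10.9 CPM with the degrader and 34.2, 18.1, 28.6 and 30.4 with KB-0742 at 4 h, and at 14.1, 15.6, 12.2 and 14.0 and 41.0, 36.6, 31.4 and 24.1 at 8 h, with no overlap. The differences were -0.89 ± 0.25 (adjusted p = 0.00835) and -1.25 ± 0.25 (adjusted p = 0.000179). The PSN1 vehicle range at 8 h was wide (37.2, 17.8, 26.0 and 17.1 CPM), and the fall with the degrader (-0.80 ± 0.25, adjusted p = 0.0175) was not called without vehicle replicate 1 (-0.54, adjusted p = 0.135). In RH4 the compounds differed by -0.63 ± 0.23 at 4 h (adjusted p = 0.0371), where 1 inhibitor library lies within the degrader range and the call was lost without KB-0742 replicate 1 or 2 or KI-CDK9d-32 replicate 4 of that time (adjusted p up to 0.184), with 0.075 under spike-in scaling. At 8 h the RH4 difference was -1.11 ± 0.23 (adjusted p = 0.000192), from 19.8, 14.1, 17.2 and 18.5 CPM with the degrader to 44.3, 28.0, 35.9 and 42.3 with KB-0742. There the vehicle libraries (16.4, 16.3, 21.2 and 21.9 CPM) lay with the degrader, and KB-0742 was above vehicle by 0.99 ± 0.23 (adjusted p = 0.000441), or -0.62 under spike-in scaling.

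Among the MXD repressors and MNT, only MXD3 was abundant enough for close comparison, and in MOLT4 it fell with the inhibitor at every time. In MOLT4, KB-0742 libraries had MXD3 at 25.5, 25.1, 29.2 and 23.1 CPM at 2 h, 19.5, 18.5, 16.0 and 26.1 at 4 h and 32.5, 53.4, 35.1 and 35.3 at 8 h. Vehicle libraries had 64.1, 36.1, 58.8 and 68.3 at 2 h, 51.2, 59.5 and 60.6 at 4 h and 57.5, 62.0, 66.9 and 69.9 at 8 h. Every inhibitor library lay below every vehicle library of its time. The log2 fold change of MXD3 was -1.14 ± 0.19 at 2 h (adjusted p = 5.91e-06), -1.48 ± 0.22 at 4 h (adjusted p = 2.09e-07) and -0.72 ± 0.19 at 8 h (adjusted p = 0.00124). With the degrader the values were -0.24 ± 0.18 and -0.29 ± 0.20 at 2 and 4 h (adjusted p = 0.475 and 0.263), and between compounds MXD3 was higher with the degrader by 0.90 ± 0.19 at 2 h (adjusted p = 0.000525) and 1.19 ± 0.21 at 4 h (adjusted p = 1.19e-05). MYC and MXD3 thus took opposite orders across the compounds in MOLT4 at 2 and 4 h, MYC being lower and MXD3 higher with the degrader than with the inhibitor.

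At 8 h the degrader gave -0.49 ± 0.19 for MXD3 in MOLT4 (adjusted p = 0.0308), with replicate 2 at 63.5 CPM inside the vehicle range, and the call was lost without degrader replicate 1, 3 or 4 or vehicle replicate 3 or 4 of that time (adjusted p = 0.0675 without the libraries that stand apart, and from 0.059 to 0.137). In RH4, KB-0742 lowered MXD3 at 4 h (26.1, 24.8, 30.0 and 18.8 CPM against 37.1, 42.4, 37.3 and 54.9, -0.77 ± 0.21, adjusted p = 0.0046), with a value of -0.25 ± 0.21 at 8 h (adjusted p = 0.356). PSN1 gave 0.14 ± 0.33 at 4 h (adjusted p = 0.804), and the response differed from that of MOLT4 by -1.69 ± 0.38 (adjusted p = 0.00207). MXD3 overlaps RAB24 and PRELID1, whose reads could be shared with it.

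MNT, MXD1 and MXI1 were sparse, mostly under 10 CPM, and their calls rest on few counts. MXD1 in MOLT4 fell with KB-0742 at 2 h, from 8.28, 4.44, 4.68 and 3.58 CPM in vehicle to 1.2, 0.364, 3.98 and 1.15 (-1.59 ± 0.58, adjusted p = 0.0353). In PSN1 MXD1 rose with the degrader at 8 h, from 8.05, 5.93, 7.39 and 7.7 to 11.6, 8.92, 16.3 and 17.4 (0.88 ± 0.30, adjusted p = 0.0321, but -0.087 under spike-in scaling). The MOLT4 call was lost without KB-0742 2 h replicate 1, 2 or 4 or vehicle 2 h replicate 1 (adjusted p from 0.0902 to 0.139). The PSN1 call was lost without KI-CDK9d-32 8 h replicate 3 or 4 or vehicle 8 h replicate 2, 3 or 4 (adjusted p from 0.0513 to 0.116). MXD1 overlaps SNRNP27 on the same strand, whose reads could be shared with it. MXI1 in PSN1 at 4 h was higher with the degrader (4.7, 6.13, 3.61 and 6.76 CPM) than with KB-0742 (0.496, 2.13, 0.42 and 1.28 CPM), by 2.27 ± 0.68 (adjusted p = 0.0146), and the call was lost without KB-0742 4 h replicate 1 (adjusted p = 0.0512) or 3 (0.0592). MNT was higher with KB-0742 than with vehicle in PSN1 at 8 h (1.21 ± 0.45, adjusted p = 0.0378), which was lost without KB-0742 replicate 1 or 3 or vehicle replicate 1, 2 or 4 of that time (adjusted p from 0.0729 to 0.123), and lower with the degrader than with KB-0742 in MOLT4 at 8 h (-1.68 ± 0.70, adjusted p = 0.0373, or 0.116 without the libraries that stand apart and from 0.0672 to 0.166 without KB-0742 replicate 1 or 2 or degrader replicate 3 or 4 of that time), where 2 of 4 degrader libraries had 0 counts. In a single library 3 counts correspond to 0.926 to 1.88 CPM in MOLT4, so values under that rest on fewer counts. This is a limit for 1 library and not for a difference between groups.

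MLXIP, the glucose-responsive partner of MLX, fell with the degrader in MOLT4 at 4 h (16.3, 17.5, 15.0 and 25.0 CPM against 34.3, 28.5 and 30.5, -0.77 ± 0.21, adjusted p = 0.00418). At 8 h 3 degrader libraries had 15.8 to 18.4 CPM and replicate 3 had 36.0, within the vehicle range of 34.6 to 38.5, and the fall was -0.79 ± 0.21 (adjusted p = 0.00155). In PSN1 it fell at 4 h (-0.75 ± 0.23, adjusted p = 0.0363), a call lost without degrader replicate 1, 2 or 4 or vehicle replicate 1 or 4 of that time (adjusted p from 0.0839 to 0.15). KB-0742 raised MLXIP in PSN1 at 8 h, from 24.9, 33.5, 32.8 and 34.7 CPM to 56.1, 52.2, 62.3 and 63.8, with no overlap (0.89 ± 0.22, adjusted p = 0.00218), although spike-in scaling gave -0.034. At 4 h the same compound had given -0.48 ± 0.23, and the change over time was called (1.37 ± 0.32, adjusted p = 0.0133, background 1.88%). The 8 h response exceeded that of RH4 by 1.37 ± 0.28 (adjusted p = 0.000533, background 7.81%). Between compounds MLXIP was lower with the degrader in MOLT4 at 2, 4 and 8 h (-0.63 ± 0.19, -1.16 ± 0.21 and -1.15 ± 0.21, adjusted p = 0.0148, 1.27e-05 and 6.81e-06), the first lost without KB-0742 2 h replicate 1 or 4 or KI-CDK9d-32 2 h replicate 1 or 3 (adjusted p from 0.0507 to 0.0576), and in PSN1 at 8 h (-0.93 ± 0.23, adjusted p = 0.00209).

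MYCN, the MYC paralog known from neural and muscle tumors, was detected almost only in RH4. It had 5 counts in 1 of 35 MOLT4 libraries, 2 counts in 1 of 32 PSN1 libraries, and 249 counts over 23 of 24 RH4 libraries. The PSN1 library was vehicle 2 h replicate 4, which also carried raised rhabdomyosarcoma markers, and the part of those in its MYCN counts was not tested. The MOLT4 library was also vehicle at 2 h, with MYCN at 1.34 CPM, a time at which RH4 was not collected. In vehicle at 4 and 8 h, RH4 had 99 counts in 8 libraries and the other lines 0 in 7 and 8 libraries. At those times MYCN was at least 28.7-fold higher in RH4 than in MOLT4 and at least 34.3-fold higher than in PSN1. These bounds take 3 counts over each group as the limit that 0 allows and leave out the 2 h libraries, where the counts of the other lines lie. RH4 vehicle libraries held 3.43, 1.38, 4.29 and 4.99 CPM at 4 h and 4.59, 4.58, 3.44 and 4.21 at 8 h. With KI-CDK9d-32 they held 1.59, 2.98, 3.87 and 2.76 at 4 h and 1.35, 1.68, 2.05 and 2.49 at 8 h. With KB-0742 they held 7.88, 4.87, 5.89 and 8.42 at 4 h and 6.09, 0, 7.66 and 11.6 at 8 h. At 8 h every degrader library lay below every vehicle library, with a value of -1.12 ± 0.57 that did not pass (adjusted p = 0.191). Under spike-in scaling MYCN was called lower in that comparison. Degrader against inhibitor at 8 h was called (-1.68 ± 0.59, adjusted p = 0.0214), but 1 KB-0742 library had 0 counts and the call was lost without KB-0742 replicate 3 or 4 or degrader replicate 1 or 2 of that time (adjusted p from 0.0505 to 0.118). MYCN overlaps the antisense gene MYCNOS, from which unstranded reads cannot be told apart.

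The course over time was tested as the change of each effect between adjacent times. In MOLT4 the MYC fall with the degrader deepened from 2 to 4 h, by a further -0.78 ± 0.23 (adjusted p = 0.0467), a call that 24 of 35 leave-one-out fits lost (adjusted p from 0.0504 to 0.17) and that was not made without the libraries that stand apart (adjusted p = 0.0763). From 4 to 8 h it eased by 0.86 ± 0.24 (adjusted p = 0.0116), lost without KI-CDK9d-32 8 h replicate 2 (0.0585) or vehicle 4 h replicate 1 (0.0597), and spike-in scaling reversed it (-0.89). The rise with KB-0742 was lost between 4 and 8 h (-1.05 ± 0.21, adjusted p = 0.000164). The shares of all genes called were 3.46% and 12.5% for the degrader and 3.15% and 17.8% for the inhibitor, where MAX fell further from 2 to 4 h (-0.82 ± 0.18, adjusted p = 0.00515). MGA with the degrader gave -1.12 ± 0.33 from 2 to 4 h (adjusted p = 0.0412), lost in 12 of 35 leave-one-out fits (adjusted p from 0.0558 to 0.116) and without the libraries that stand apart (0.0541). Of the 7 changes over time called in MOLT4, 1 was called under spike-in scaling, that of MAX with the degrader from 4 to 8 h (-2.66, adjusted p = 0.0018), and the adjusted p of the other 6 ran from 0.237 to 0.868.

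In RH4, edgeR called 0 of 10 network genes in the change from 4 to 8 h with either compound (background 0% and 8.52%), 3 had an unadjusted p under 0.05 with each, and DESeq2 called 0. In PSN1 with the degrader, 0 of 9 were called in either interval (background 0.016% in both), 1 and 3 had an unadjusted p under 0.05, and DESeq2 called 0 and 1. For MYC with the degrader the difference between the 8 h and 4 h effects was 0.73 ± 0.19 in PSN1 (adjusted p = 0.183) and 0.89 ± 0.34 in RH4 (adjusted p = 0.511), which did not pass.

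**Figure D4:**
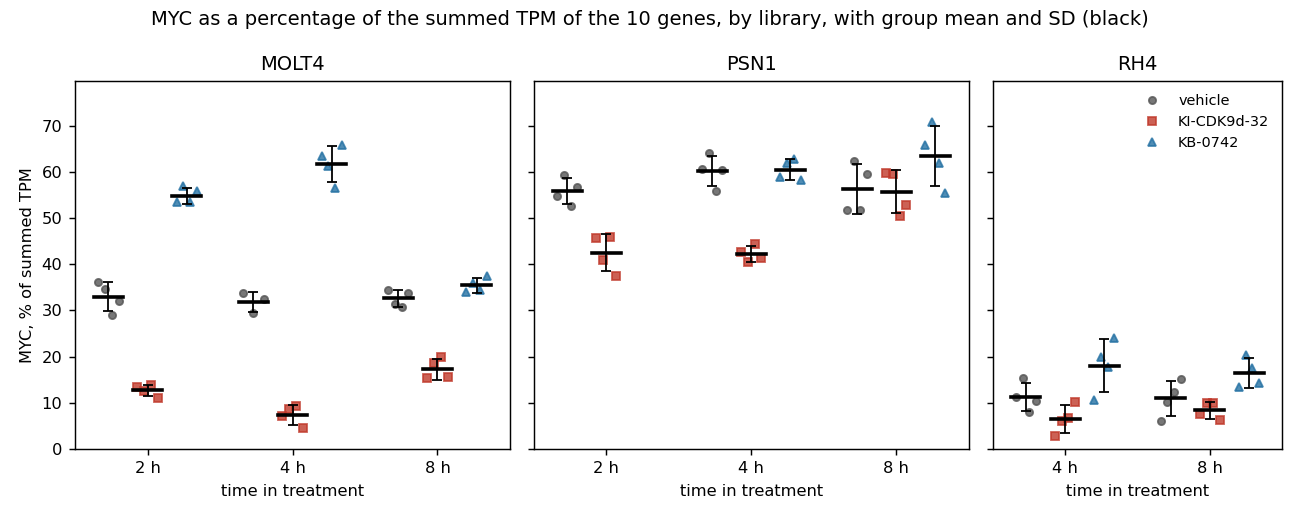
MYC as a percentage of the summed TPM of the 10 network genes (vertical axis, from 0, shared by the panels) by time in the 3 lines, drawn as in the plot of MYC. MOLT4 libraries fall into 3 separate ranges at 2 and 4 h, with KI-CDK9d-32 lowest and KB-0742 highest.

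Ratios within a library do not depend on how libraries are scaled, but they move with the other genes as well as with MYC. MYC made up 33.0 ± 3.18% of the summed TPM of the 10 genes in MOLT4 vehicle at 2 h (mean ± SD, n = 4), 12.7 ± 1.21% with the degrader and 54.9 ± 1.74% with KB-0742. At 4 h these shares were 31.9 ± 2.23% (n = 3), 7.39 ± 2.14% and 61.8 ± 3.94%, and at 8 h 32.6 ± 1.79%, 17.3 ± 2.28% and 35.4 ± 1.64%. The library ranges did not overlap at 2 and 4 h. In PSN1 the share was 60.3 ± 3.33% in vehicle and 42.3 ± 1.65% with the degrader at 4 h, without overlap, and was 55.7 ± 4.67% against 56.4 ± 5.45% at 8 h. In RH4 it was 11.3 ± 3.06% in vehicle, 6.41 ± 3.07% with the degrader and 18.1 ± 5.66% with KB-0742 at 4 h, where both compounds overlap vehicle. The ratio of MYC to MAX, both in TPM, was 1.32 ± 0.139 in MOLT4 vehicle at 4 h, 0.208 ± 0.0815 with the degrader and 4.46 ± 0.921 with the inhibitor. MAX itself stood at 66.6 ± 1.93, 40.0 ± 12.8 and 21.6 ± 2.02 TPM in these groups. MLX stood at 47.3 ± 2.41, 19.1 ± 1.74 and 19.3 ± 3.41 TPM. A higher share or ratio with KB-0742 thus does not by itself show more MYC. These ratios were chosen after values had been seen and carry no test.

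**Figure D5:**
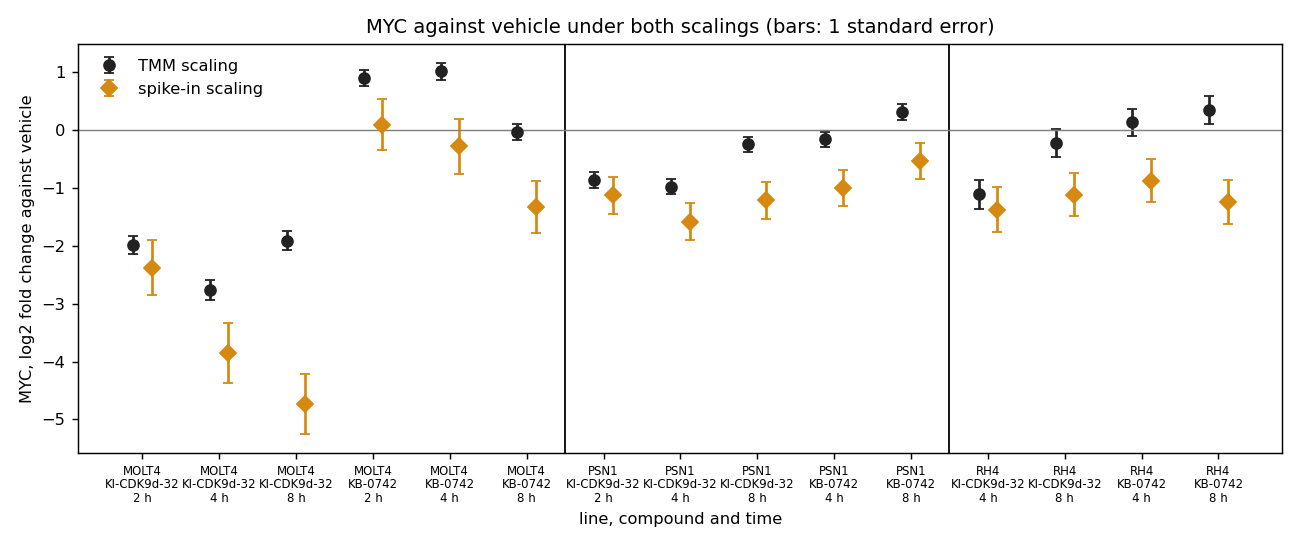
log2 fold change of MYC against vehicle (vertical axis) in each line, compound and time (horizontal axis) with TMM scaling (black circles) and with spike-in scaling (orange diamonds). Bars are 1 standard error. Spike-in values lie lower in every comparison, and the distance is greatest for KI-CDK9d-32 in MOLT4 at 8 h.

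Spike-in scaling asks a different question, namely how much of a transcript each lysate held. The median log2 fold change of all genes against vehicle, between -0.18 and 0.000774 under TMM, became -0.41, -1.13 and -2.99 with the degrader in MOLT4 at 2, 4 and 8 h, and -0.86, -1.38 and -1.41 with KB-0742. In PSN1 it became -0.29, -0.61 and -1.01 with the degrader and -0.92 and -0.94 with KB-0742, and in RH4 -0.36 and -0.92, and -1.12 and -1.66. On the spike-in scale MYC changed by -2.37, -3.85 and -4.74 with the degrader in MOLT4, called at each time (adjusted p = 0.000611, 4.47e-09 and 1.44e-14). With KB-0742 it gave 0.096, -0.28 and -1.33, of which the last was called (adjusted p = 0.882, 0.614 and 0.00917). MYC counts per 1000 spike-in counts had a mean of 1.34 ± 0.299 in MOLT4 vehicle at 8 h, 0.0506 ± 0.0268 with the degrader and 0.534 ± 0.2 with KB-0742 (SD, n = 4).

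The split of calls changed with the scaling as well. Over all comparisons of KI-CDK9d-32 with vehicle, 18 gene tests of 74 were called lower and 2 higher with TMM, and 31 lower and 0 higher with spike-in scaling. Over all genes the shares called lower and higher in those comparisons were 9.18% and 8.21% with TMM and 30.4% and 0.557% with spike-in scaling. For KB-0742 the numbers were 10 lower and 7 higher of 65, against 34 lower and 0 higher, and over all genes 17.6% and 16.9%, against 50.5% and 0.646%. Between compounds they were 21 lower and 5 higher of 65 with the degrader, against 13 lower and 9 higher, and over all genes 16.0% and 15.1%, against 10.5% and 14.1%. MGA was below its KB-0742 value in 6 of 7 comparisons under spike-in scaling, 3 of them called (MOLT4 at 4 and 8 h and PSN1 at 8 h), and MYC in 6 of 7, 3 of them called (MOLT4 at 2, 4 and 8 h). Of all 103 calls on network genes, 39 ended under spike-in scaling, 13 of them with a change of sign. Between compounds these included MLXIP at 2 and 4 h and MXD3 at 2 h in MOLT4, and MYCN in RH4 at 8 h. With KB-0742 they included MNT in PSN1 at 8 h, the change of MLXIP over time in PSN1, and the difference of MXD3 between MOLT4 and PSN1 at 4 h. In vehicle they included MLX and MGA between MOLT4 and PSN1, MAX between MOLT4 and RH4 and MXD1 between PSN1 and RH4. The adjusted p of these 11 ran from 0.0707 to 0.871.

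Other genes of the pathway were taken from lists of targets and cofactors. Of 24 MYC targets tested, mostly genes of ribosome production, 5 were higher and 15 lower with the degrader in MOLT4 at 8 h (median log2 fold change -0.68, against -0.18 over all genes, of which 49.6% were called), and 15 were higher and 3 lower with KB-0742 (median 0.56, against -0.10, with 49.2% called). At 2 h, when MYC was called lower, 4 were higher and 3 lower with the degrader, against 9.98% of all genes called. With the degrader at 8 h GRWD1 and NOP16, factors of ribosome biogenesis, fell (-3.62 ± 0.22 and -2.71 ± 0.17), as did LDHA, lactate dehydrogenase A (-2.00 ± 0.11, adjusted p = 1.39e-19, 3.07e-19 and 8.33e-22). With KB-0742 RRS1, another ribosome assembly factor, rose by 1.31 ± 0.17, and CDK4, a cell cycle kinase, fell (-1.26 ± 0.14, adjusted p = 6.72e-09 and 1.43e-09). PPAN rose by 1.60 ± 0.56 (adjusted p = 0.0198), lost in 3 leave-one-out fits. Under spike-in scaling the median of the list was -3.59 with the degrader and -0.77 with KB-0742.

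In PSN1 at 8 h 5 were higher and 7 lower of 24 with the degrader (median -0.14, against -0.053 over all genes, of which 20.7% were called), and 8 were higher and 0 lower with KB-0742 (median 0.29, against -0.051 with 30.2% called, and -0.58 under spike-in scaling). NOP16 (-1.18 ± 0.16, adjusted p = 5.55e-07) and the nucleolar GTPase gene GNL3 (-0.87 ± 0.17, adjusted p = 0.000226) fell with the degrader, as did POLR1B (-0.69 ± 0.22, adjusted p = 0.0243, lost in 4 leave-one-out fits), while the nucleolar genes NOP56 (0.96 ± 0.11, adjusted p = 1.95e-08) and NOP58 (0.93 ± 0.14, adjusted p = 2.01e-06) rose with KB-0742. In RH4 at 8 h 3 were higher and 5 lower with the degrader (median -0.14, against -0.04 with 15.2% called), and 12 were higher and 3 lower with KB-0742 (median 0.33, against -0.086 with 45.4% called, and -1.26 under spike-in scaling). GNL3 fell with both, at -0.70 ± 0.20 with the degrader (adjusted p = 0.0119) and -2.04 ± 0.24 with KB-0742 (adjusted p = 2.26e-09), whereas RRS1 (1.40 ± 0.24) and FBL (0.93 ± 0.099), the fibrillarin gene, rose with KB-0742 (adjusted p = 6.86e-06 and 2.78e-10). Spike-in values of the genes that rose with KB-0742 were -0.035 for RRS1 and 0.26 for PPAN in MOLT4, 0.095 for NOP56 and 0.04 for NOP58 in PSN1, and -0.22 for RRS1 and -0.65 for FBL in RH4. The 2 compounds share vehicle libraries within a line.

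Among 9 partners of MGA in its Polycomb complex, 2 were higher and 3 lower with the degrader in MOLT4 at 8 h (median -1.10, against -0.18 over all genes), near the 49.6% of all genes called. The 2 that rose, CBX3 and TFDP1, were below 0 under spike-in scaling. PCGF6, the subunit that defines the complex, fell (-4.73 ± 0.63, adjusted p = 1.11e-08), as did L3MBTL2 (-1.24 ± 0.29, adjusted p = 0.000418) and the ubiquitin ligase gene RNF2 (-1.10 ± 0.32, adjusted p = 0.00329). RNF2 also fell with the degrader in PSN1 (-0.74 ± 0.25, adjusted p = 0.0324, lost in 4 leave-one-out fits) and in RH4 (-1.04 ± 0.30, adjusted p = 0.0147, lost in 1), and with KB-0742 in PSN1 (-0.83 ± 0.26, adjusted p = 0.0119) and RH4 (-1.21 ± 0.33, adjusted p = 0.00258). L3MBTL2 was higher with KB-0742 in PSN1 (0.96 ± 0.27, adjusted p = 0.00559, spike-in value 0.033). In RH4 with KB-0742 E2F6 was higher (0.82 ± 0.31, adjusted p = 0.0274, lost in 3, spike-in value -0.74) and CBX3 lower (-0.54 ± 0.13, adjusted p = 0.000659). With KB-0742 in MOLT4 at 8 h, 0 of the 9 were higher and 2 lower, a smaller share than the 49.2% of all genes called. The 2 were TFDP1 (-0.83 ± 0.22, adjusted p = 0.00123) and L3MBTL2 (-0.63 ± 0.26, adjusted p = 0.0438, lost in 5 leave-one-out fits).

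Of 6 corepressor genes tested that serve MXD and MNT proteins, 3 were higher and 2 lower with the degrader and 3 were higher and 1 lower with KB-0742 in MOLT4 at 8 h, 3 were higher and 0 lower with KB-0742 in PSN1, and 2 were higher and 1 lower with KB-0742 in RH4, where 49.6%, 49.2%, 30.2% and 45.4% of all genes were called. SIN3A, the scaffold that MXD proteins bind, rose with KB-0742 at 8 h in MOLT4 (1.82 ± 0.15, adjusted p = 2.55e-14), PSN1 (1.18 ± 0.22, adjusted p = 5.65e-05) and RH4 (1.78 ± 0.15, adjusted p = 1.22e-12), with spike-in values of 0.46, 0.27 and 0.22. In MOLT4 with the degrader the histone deacetylase genes moved apart, HDAC1 higher (1.31 ± 0.096) and HDAC2 lower (-1.08 ± 0.17, adjusted p = 9.84e-17 and 4.06e-07). For HDAC1 spike-in scaling gave -1.56. The same split came with KB-0742 in RH4, HDAC1 at 0.36 ± 0.10 and HDAC2 at -0.99 ± 0.16 (adjusted p = 0.00352 and 1.59e-06), with HDAC1 at -1.23 under spike-in scaling. HDAC2 was also lower with KB-0742 in MOLT4 (-0.54 ± 0.16, adjusted p = 0.00349) and with the degrader in RH4 (-0.43 ± 0.15, adjusted p = 0.0403, lost in 5 leave-one-out fits).

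Of 14 MYC cofactors, 4 were higher and 5 lower with the degrader and 5 were higher and 3 lower with KB-0742 in MOLT4 at 8 h, against 49.6% and 49.2% of all genes called. The acetyltransferase gene KAT5 fell with the degrader (-3.02 ± 0.45, adjusted p = 5.48e-07), and with KB-0742 EP300, another acetyltransferase gene, rose in MOLT4, PSN1 and RH4 (1.33 ± 0.23, 1.63 ± 0.27 and 1.51 ± 0.20, adjusted p = 4.04e-06, 1.35e-05 and 6.55e-08). Under spike-in scaling EP300 was -0.0019 in MOLT4, 0.67 in PSN1 and -0.092 in RH4. KAT2A went the other way with KB-0742 and fell in MOLT4 (-1.69 ± 0.30, adjusted p = 7.66e-06) and RH4 (-0.92 ± 0.26, adjusted p = 0.00333). With KB-0742 8 were higher and 2 lower in PSN1, and 5 were higher and 4 lower in RH4 (background 30.2% and 45.4%). Among 11 genes for MYC protein turnover, 3 were higher and 3 lower with the degrader and 5 were higher and 3 lower with KB-0742 in MOLT4 at 8 h, against the same 49.6% and 49.2%. The deubiquitinase gene USP36 rose with KB-0742 in MOLT4 (1.88 ± 0.13), PSN1 (1.50 ± 0.13) and RH4 (1.29 ± 0.14, adjusted p = 5.88e-17, 1.21e-11 and 2.7e-10), and AURKA, a kinase that stabilizes MYCN, fell with the degrader in the same lines (-1.18 ± 0.18, -1.30 ± 0.18 and -0.66 ± 0.14, adjusted p = 3.13e-07, 2.01e-06 and 0.000893). AURKA also fell with KB-0742 in PSN1 at 8 h (-1.19 ± 0.18, adjusted p = 4.78e-06). In MOLT4 at 8 h STUB1 (-2.16 ± 0.37, adjusted p = 2.46e-06) and SKP2 (-1.65 ± 0.15, adjusted p = 1.29e-13) fell with KB-0742. Under spike-in scaling USP36 was 0.57, 0.60 and -0.28 in MOLT4, PSN1 and RH4.

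Of 3 MLXIP targets tested at 8 h, 1 were higher and 1 lower with the degrader and 2 were higher and 0 lower with KB-0742 in MOLT4, 0 were higher and 1 lower and 0 were higher and 0 lower in PSN1, and 1 were higher and 1 lower and 1 were higher and 1 lower in RH4, where the background is as given for the MYC targets. TXNIP, a suppressor of glucose uptake and the best known MLXIP target, rose with the degrader in MOLT4 (1.23 ± 0.22, adjusted p = 6.03e-06) and RH4 (1.45 ± 0.17, adjusted p = 6.9e-08) and with KB-0742 in the same lines (0.97 ± 0.22 and 2.26 ± 0.17, adjusted p = 0.000188 and 4.22e-14). Its spike-in values were -1.49 and -0.37 in MOLT4 and 0.56 and 0.67 in RH4. HK2, hexokinase, fell with the degrader in MOLT4 (-1.83 ± 0.30, adjusted p = 8.87e-07), PSN1 (-0.91 ± 0.24, adjusted p = 0.00475, lost in 1 leave-one-out fit) and RH4 (-1.04 ± 0.30, adjusted p = 0.0131, lost in 3). With KB-0742 HK2 was higher in MOLT4 (0.67 ± 0.23, adjusted p = 0.0117, lost in 1, and -0.61 under spike-in scaling) and lower in RH4 (-1.29 ± 0.33, adjusted p = 0.00133). Of the other MAX-network genes, MXD4 in RH4 fell with the degrader (-1.58 ± 0.45, adjusted p = 0.0122, lost in 2) and with KB-0742 (-2.69 ± 0.55, adjusted p = 9.41e-05).

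CDK9, the target of both compounds, is checked here only as mRNA, since a degrader and an inhibitor act on the protein. Its mRNA was not called with the degrader against vehicle in any of 8 comparisons (lowest -0.47 ± 0.30 in MOLT4 at 2 h, highest 0.64 ± 0.31 in RH4 at 8 h, adjusted p = 0.383 and 0.171). Of those 8, 1 had an unadjusted p under 0.05 and DESeq2 called 0. With KB-0742 it rose at 8 h in MOLT4, from 8.75 ± 1.92 to 19.6 ± 5.43 CPM (SD, n = 4, 1.16 ± 0.30, adjusted p = 0.00118), and in RH4, from 8.69 ± 3.18 to 24.4 ± 5.68 CPM (1.48 ± 0.31, adjusted p = 0.000162), with spike-in values of -0.17 and -0.062. In PSN1 it stood at 6.89 ± 2.3 CPM in vehicle, 6.63 ± 0.564 with the degrader and 14.0 ± 5.34 with KB-0742 at 4 h, and at 8.6 ± 4.37, 9.27 ± 2.78 and 9.73 ± 5.51 at 8 h, with no call. Between compounds CDK9 was lower with the degrader in MOLT4 at 4 h (-0.81 ± 0.33, adjusted p = 0.0472, lost in 22 of 35 leave-one-out fits) and 8 h (-1.07 ± 0.32, adjusted p = 0.00402), and in RH4 at 8 h (-0.84 ± 0.31, adjusted p = 0.0292, lost in 5 of 24).

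Across the 23 group means of log2 CPM, centred within each line, MYC followed PELO most closely (Pearson r = 0.90), then C3orf38 and ADPGK-AS1 (both 0.88) and MAD2L1BP and FBXL12 (both 0.87), among 6519 genes. Of the other network genes, MLXIP (0.76) and MGA (0.75) were closest to MYC, MAX and MLX followed each other (0.74), and MGA ran against MXI1 (-0.73). The points share vehicle groups and library scaling, and these values are descriptions without a test.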

How the data were processed

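Per the labels' protocols, SMART-seq2 at reduced volume and Nextera XT were used to make the libraries, from lysates to which equal amounts of ERCC and SIRV spike-in RNA had been added. The protocol marks neither strand nor molecule. Reads were quantified with Salmon on hg38, per the submitters' processing notes, and the software version and annotation are not given in the sources used here. The authors deposited expected counts per gene, which were rounded to whole numbers here, and log2(TPM + 1) values, whose TPM total includes spike-ins and was rescaled to genes only. Of 62856 entries per table, 92 ERCC, 7 SIRV and 47 PAR_Y copies were left out of library sizes and tests.

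Genes with low counts were set aside by filterByExpr (minimum count 10), leaving 11664 genes in MOLT4, 12471 in PSN1, 12058 in RH4 and 15881 in a joint fit of all lines. The main test was the quasi-likelihood test of edgeR on TMM-scaled counts, with p-values adjusted by Benjamini-Hochberg within each comparison, called at an adjusted p under 0.05. Standard errors are the log2 fold change divided by the square root of F, and intervals are 95%. There were 15 comparisons with vehicle, 7 between compounds, 9 changes over time, 12 differences between lines and 3 vehicle comparisons. Each fit within a line used all its libraries, which share 1 estimate of spread. The test was tried on simulated data with known changes in a small part of the genes, up and down in similar numbers. Such data cannot show how TMM scaling behaves when most transcripts fall.

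Spike-in scaling, RLE scaling, DESeq2, no low-count filter, a replicate block and leaving out each library were the alternatives, with replicate numbers left out in turn in the joint fit. Leaving out the 6 libraries that stand apart was chosen after seeing the data. The 10 genes and the pathway and marker lists were chosen with earlier results of these data known. All 10 genes are named, and from each pathway list up to 3 called genes with the largest change at 8 h with each compound in each line could be named. The result of 1 gene of these lists is not reported here. Total gene counts per library of 1598283 to 3240753 limit the precision for genes under about 10 CPM. Intervals of fold changes rest on the estimated spread between libraries, and floors for 0 counts cover counting error only. Tools were R 4.3.3, edgeR 4.0.16, limma 3.58.1, DESeq2 1.42.0, Python 3.11.15, pandas 2.3.3, numpy 2.4.6 and matplotlib 3.10.9.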

Additional observations from a re-analysis of the deposited data

Results flagged for a closer look

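In 7 of 204 groups tested, 1 library lay far from the other 3 (Dixon's criterion, critical value 0.829 for 4 samples), and chance flags about 1 in 20 groups. These were MGA in RH4 KI-CDK9d-32 4 h replicate 4 (9.80 CPM), MLXIP in MOLT4 KI-CDK9d-32 8 h replicate 3 (36.0 CPM) and in RH4 KI-CDK9d-32 4 h replicate 1 (48.0 CPM), and MXI1 in MOLT4 KI-CDK9d-32 8 h replicate 3 (12.0 CPM). MXD3 stood apart in MOLT4 KB-0742 8 h replicate 2 (53.4 CPM), KI-CDK9d-32 4 h replicate 4 (61.5 CPM) and KI-CDK9d-32 8 h replicate 2 (63.5 CPM). Both MLXIP and MXI1 in MOLT4 KI-CDK9d-32 8 h were high in the library with the highest spike-in share, 61.5%, whose part in these values was not tested.

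The effect of a compound changed between times in 8 cases. In MOLT4 with KI-CDK9d-32 the change from 2 to 4 h was -1.12 for MGA and -0.78 for MYC on the log2 scale, and from 4 to 8 h it was -0.75 for MAX and 0.86 for MYC. With KB-0742 in MOLT4 it was -0.82 for MAX from 2 to 4 h, and 0.65 for MAX and -1.05 for MYC from 4 to 8 h. In PSN1 the effect of KB-0742 on MLXIP changed by 1.37 from 4 to 8 h.

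The effect of a compound differed between lines in 11 cases. For KI-CDK9d-32 at 4 h, MYC in MOLT4 differed from PSN1 by -1.68 and from RH4 by -1.58. At 8 h the differences of MOLT4 from PSN1 were -0.73 for MAX, -0.96 for MLX and -1.59 for MYC, and from RH4 -1.02 for MAX, -1.57 for MLX and -1.63 for MYC. For KB-0742 at 4 h, MOLT4 differed from PSN1 by -1.69 for MXD3 and 1.11 for MYC, and at 8 h PSN1 differed from RH4 by 1.37 for MLXIP.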

How the results depend on the processing

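The choice of scaling mattered most. More values changed sign than were called under either scaling. Against vehicle, 35 of 65 values with KB-0742 lay below 0 with TMM and 61 with spike-in scaling. With KI-CDK9d-32 it was 55 and 71 of 74. Counting only values called under at least 1 of these scalings, spike-in scaling reversed 23, of which 13 were called with TMM. Against vehicle these 23 were, with KB-0742 at 4 h, MGA (-0.64) and MYC (-0.28) in MOLT4 and MGA (-0.87) and MYC (-0.87) in RH4. With KB-0742 at 8 h they were MGA (-0.31) and MLX (-1.23) in MOLT4, MLXIP (-0.034) in PSN1, and MGA (-0.62), MXD1 (-1.46) and MYC (-1.24) in RH4. With KI-CDK9d-32 at 8 h they were MXD1 (-2.34) and MXI1 (-2.16) in MOLT4, MXD1 (-0.087) in PSN1 and MLX (-0.50) in RH4. Between compounds they were MXD3 in MOLT4 at 8 h (-1.25) and MGA in RH4 at 4 h (0.075), and over time MYC in MOLT4 with KI-CDK9d-32 from 4 to 8 h (-0.89). Between lines they were MGA (-1.73) and MXD3 (-1.64) for KI-CDK9d-32 at 8 h in MOLT4 less PSN1, and in vehicle MGA (-0.23), MLX (-0.29) and MXD3 (-0.013) in MOLT4 less RH4 and MAX (-0.24) in PSN1 less RH4. The cause was not tested.

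Counts of called network genes that moved by more than 1.5 times were, for KB-0742 against vehicle in PSN1 (2 as reported), 8 with spike-in scaling, 4 with DESeq2, 1 with no low-count filter and 5 with the replicate block. Spike-in scaling gave 3 of 6 between compounds in PSN1, 6 of 2 for KI-CDK9d-32 and 15 of 4 for KB-0742 against vehicle in RH4, 17 of 8 for KI-CDK9d-32 between lines and 1 of 3 for KB-0742 between lines, the second number being the reported count. KI-CDK9d-32 against vehicle in RH4 gave 1 with no low-count filter. For changes over time in PSN1 (1 as reported) spike-in scaling gave 0, DESeq2 2 and the replicate block 2. For KB-0742 between lines DESeq2 and the replicate block gave 5. Without the libraries that stand apart and with spike-in scaling, PSN1 gave 8 for KB-0742 against vehicle, 3 between compounds and 0 over time. Over single genes, 2 called values lost their call with DESeq2, 3 with RLE, 8 with no filter, 4 with the replicate block and 26 with spike-in scaling, and 110 did so, and 2326 did not, over all fits with 1 library or replicate number left out.

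With 1 library or replicate number left out, the counts of called network genes ranged in MOLT4 from 10 to 12 for KI-CDK9d-32 and 10 to 12 for KB-0742 against vehicle, 12 to 14 between compounds and 4 to 9 over time. In PSN1 they ranged from 5 to 6, 1 to 4, 5 to 7 and 1 to 1, and in RH4 from 1 to 2, 3 to 5, 5 to 8 and 0 to 0. Between lines they ranged from 7 to 9 for KI-CDK9d-32, 3 to 5 for KB-0742 and 19 to 20 in vehicle. The replicate numbers were not taken as pairs in the main test. The mean correlation of deviations of same-numbered samples was small but above that of other numbers in each line (MOLT4 0.0534, PSN1 0.136, RH4 0.104, against -0.0178, -0.0454 and -0.0345). Not every pair passed 0.1 (21 of 136, 80 of 112 and 26 of 60). Yet 30 of 35, 29 of 32 and 23 of 24 samples correlated best with their own number. Same-numbered samples thus shared part of their variation, which the main test does not model and the replicate block does. In PSN1 with KB-0742 the replicate block also called MGA at 4 h and MYC and MAX at 8 h. Depth limits MNT, MXD1, MXI1, MYCN and MGA most.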
